A study of Homo sapiens with 8 samples.

Results

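The 10 genes described here sense microbial or danger signals, relay them or restrain the response, and were followed in SCC25 cells depleted of ETS1. They were the Toll-like receptors TLR2, TLR3, TLR4 and TLR6, the inflammasome sensors NLRP3 and NLRP1, the adaptor MYD88, the NF-kB inhibitors NFKBIA and TNFAIP3, and the cytokine IL24. These 10 rows of the 56638 gene symbols in the count tables were chosen by name, and were selected on their changes in these same libraries. Their levels and changes are therefore given as a description, without p-values.

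SCC25 is an established cell line from a squamous carcinoma of the head and neck region. RNA sequencing was performed on 8 libraries in 4 groups of 2. Cells of the group siRNA control received a non-silencing siRNA, and cells of the group ETS1 siRNA received a pool of 4 siRNAs against the transcription factor ETS1, giving short-term loss. The groups shCON and shETS1 were stable lentiviral lines under puromycin selection that carried a non-silencing hairpin or a hairpin against ETS1, giving long-term loss. Only 1 hairpin was used for shETS1, so its effects cannot be told apart from those of other targets of that hairpin. All groups were grown in the same medium with serum and hydrocortisone. Both siRNA groups were transfected with Lipofectamine RNAiMAX, and both stable lines were transduced with lentivirus. Whether the transfected RNA, the reagent or the virus acted on these sensors was not tested. No other agent that could stimulate them is named for these libraries. The methods call the siRNA replicates biological, the labels do not say whether the shRNA replicates were separate cultures, and p-values measure the spread between these libraries.

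Toll-like receptors bind microbial products at the cell surface or in endosomes and, apart from TLR3, signal through MYD88 to kinases that release NF-kB from its inhibitor. NF-kB then switches on cytokine genes together with its own inhibitors: NFKBIA encodes IκBα, which holds NF-kB in the cytoplasm, and TNFAIP3 encodes A20, a ubiquitin-editing enzyme that shuts off the upstream kinases. NLRP3 and NLRP1 assemble inflammasomes, which activate caspase-1, and NLRP1 is the principal inflammasome sensor of human keratinocytes.

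The promoters of the feedback inhibitors are shown because both genes are textbook NF-kB targets. Each run holds the 250 bases before the RefSeq start site in GRCh38.p14, read 5′ to 3′ along the gene, at chr14:35404750-35404999 on the minus strand for NFKBIA and at chr6:137867009-137867258 on the plus strand for TNFAIP3. Capitals mark matches to the kappaB consensus and, in NFKBIA, to the ETS core CGGAAG.
NFKBIA: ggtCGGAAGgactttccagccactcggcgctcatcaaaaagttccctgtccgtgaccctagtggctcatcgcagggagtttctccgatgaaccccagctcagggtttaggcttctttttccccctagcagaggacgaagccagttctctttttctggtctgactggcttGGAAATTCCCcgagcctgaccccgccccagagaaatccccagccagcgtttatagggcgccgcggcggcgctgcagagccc
TNFAIP3: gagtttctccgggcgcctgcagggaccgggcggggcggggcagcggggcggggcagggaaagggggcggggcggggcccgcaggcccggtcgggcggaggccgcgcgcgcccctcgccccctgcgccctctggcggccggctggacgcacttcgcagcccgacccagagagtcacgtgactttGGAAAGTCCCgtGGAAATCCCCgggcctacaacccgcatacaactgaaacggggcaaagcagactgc

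NFKBIA held 1 kappaB match, GGAAATTCCC, from 81 to 72 bases before the start. TNFAIP3 held 2, GGAAAGTCCC from 67 to 58 and GGAAATCCCC from 55 to 46 bases before the start. The consensus was GGGRNNYYCC (R for A or G, Y for C or T, N for any base). Each of these kappaB matches fits it on the strand opposite to the gene, and is printed as read along the gene. Both strands were searched over 300 bases, the 250 shown and the 50 after the start, and 11.3% of 35116 RefSeq promoters of that length held a kappaB match. The ETS core CGGAAG was found from 247 to 242 bases before the start of NFKBIA and in 19.5% of all promoters. The longer ETS core CCGGAAGT, which contains the shorter one, occurred in 4.14% of promoters and in 0 of the 9 members with an entry. Of those 9 members, 2 held the kappaB consensus and 1 held CGGAAG. The NLRP1 promoter was not used here. These matches describe letters in a window and not binding.

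Total counts ranged from 15954616 to 25953213 per library. Non-polyadenylated structural RNAs made up 5.61% to 6.63% of counts in shCON, 9.64% to 12.3% in shETS1 and at most 0.00339% in the siRNA libraries, and levels were scaled within each table separately. Levels are given as CPM, counts per 1000000 of the scaled library size. Summed keratinocyte markers, with 0 of 10 at 0, were higher without overlap in both knockdowns: 16300 and 21000 CPM in siRNA control against 28100 and 24200 CPM, and 16000 and 16100 CPM in shCON against 26700 and 26300 CPM. The sum hides single keratinocyte markers that went the other way. At an adjusted p under 0.1 in edgeR's quasi-likelihood test, 5 of 10 were higher and 4 lower after shRNA, and 0 differed after siRNA. Summed leukocyte markers lay between 1.26 and 3.74 CPM, and in every group MS4A1 was at 0. Summed over 8 fibroblast and endothelial markers, shCON had 225 and 257 CPM and shETS1 2040 and 1940 CPM, carried by LUM and DCN. The fibroblast markers PDGFRB (0.275 and 0.355), THY1 (0.117 and 0.123) and ACTA2 (1.17 and 2.01) had low mean CPM in shCON and shETS1. VWF was at 0.234 and 0.0832 CPM, and PECAM1 and CDH5 were at 0 in both. The part of these shifts in the changes of the innate genes was not tested, and in bulk RNA fewer cells of a type cannot be told apart from less RNA per cell.

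ETS1, the targeted gene, checked the labels. Its level was 288 and 248 CPM in siRNA control, against 17.4 and 13.2 CPM after ETS1 siRNA. It was 82.3 and 72.1 CPM in shCON and 9.76 and 11.1 CPM in shETS1. Neither pair of groups overlapped.

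Per kilobase of transcript, NFKBIA was the most abundant of the 10 in every group. Its mean level was 127 ± 23.3 CPM per kb (SD, n = 2) in siRNA control, above TNFAIP3 with 75.5 ± 10.7. NFKBIA was at 182 CPM per kb in shCON and 315 CPM per kb in shETS1. IL24 came next in siRNA control with 26.6 ± 2.77 CPM per kb, followed by NLRP1 with 19.9 and MYD88 with 18.4, whose libraries overlapped. TLR2 stood at 4.62, NLRP3 at 2.19, TLR6 at 1.22 and TLR4 at 0.106 CPM per kb, and TLR3 had no read. The order already differed in shCON, with TLR2 in place 4 at 6.83 and IL24 in place 7 at 0.952 CPM per kb. In shETS1 TLR2 stood in the place below NFKBIA with 35.3 CPM per kb. IL24 was again in place 7, with 0.0531 CPM per kb in shETS1, overlapping TLR3. TNFAIP3 and NLRP1 overlapped there, with 8.63 and 8.05 CPM per kb.

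**Figure D1:**
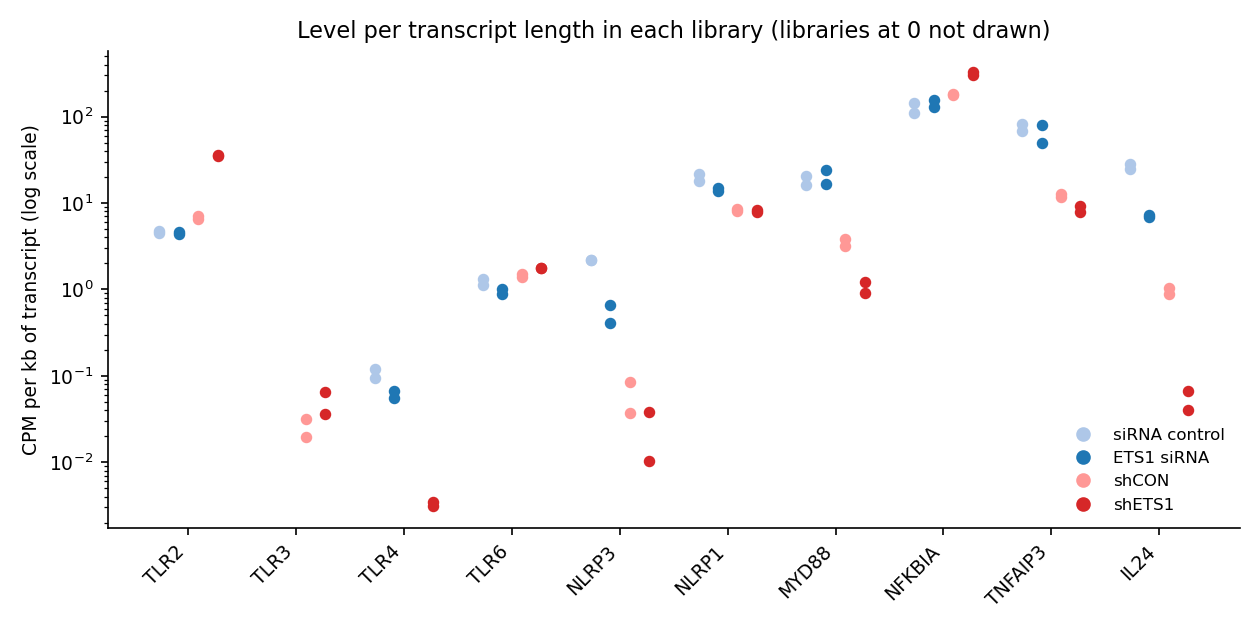
Level of each gene per kilobase of its MANE transcript in each library (CPM per kb, log axis), with 1 point per library and 2 libraries in each of 4 groups; libraries at 0 are not drawn. NFKBIA is highest in every group, and IL24 spans from 26.6 CPM per kb in siRNA control to 0.0531 in shETS1.

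The controls themselves differed between the tables. NLRP3 was at a mean of 9.16 CPM in siRNA control and 0.256 CPM in shCON, a ratio of 35.8. IL24 was at 52.5 and 1.88 CPM (ratio 27.9), TNFAIP3 at 352 and 56.7 CPM (ratio 6.21), and MYD88 at 49.0 and 9.41 CPM (ratio 5.21). Of the 14038 genes tested in both tables, 3.65% were more than 4-fold higher in siRNA control and 1.79% in shCON. The culture history of the cells, their transfection or transduction, and the preparation of the tables cannot be told apart in these ratios. No level was tested across the tables.

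A gene was called at an adjusted p under 0.1 in edgeR's quasi-likelihood test over all genes. After siRNA, 9 of the 10 members passed the filter on low counts (TLR3 did not), and 2 were called, NLRP3 and IL24, both lower. Over all 14742 genes tested 3.41% were called, 2.27% lower and 1.13% higher. After shRNA, 7 members passed the filter (TLR3, TLR4 and NLRP3 did not), and 6 were called: TLR2, TLR6 and NFKBIA higher, and MYD88, TNFAIP3 and IL24 lower. Over all 16481 genes tested 60.6% were called, 29.7% higher and 30.9% lower. The groups did not overlap in 5 of 9 tested members after siRNA and 6 of 7 after shRNA, beside 51.9% and 76.6% of all tested genes. Since the members were picked with these changes known, nothing is read from these shares.

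**Figure D2:**
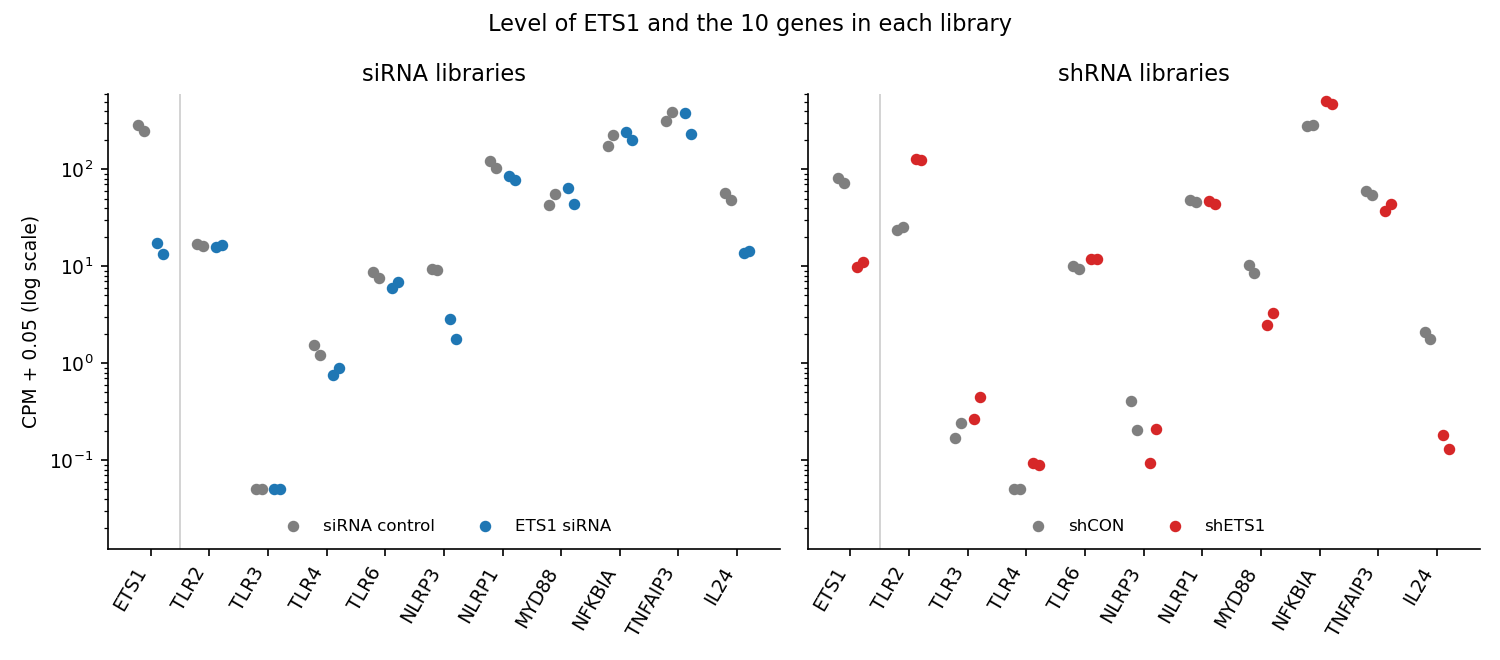
Level of ETS1 and of the 10 genes in each library (CPM plus 0.05, log axis), siRNA libraries left and shRNA libraries right, with controls in grey and knockdowns in colour, 2 points per group. In the siRNA libraries NLRP3 and IL24 sit clearly below their controls, and in the shRNA libraries TLR2 and NFKBIA sit above theirs and MYD88 and IL24 below.

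Among the 4 receptors TLR2 was called after shRNA in every setting. TLR2, on chromosome 4 from 154605222 to 154627412 on the plus strand (GRCh37, as for all gene positions), recognises bacterial lipopeptides together with TLR1 or TLR6. It was at 17 and 16.2 CPM in siRNA control against 15.7 and 16.6 CPM after ETS1 siRNA. The shCON libraries had 23.5 and 25.6 CPM and the shETS1 libraries 129 and 125 CPM. The siRNA groups overlapped, with a log2 fold change of -0.05 (SE 0.15), whereas both shETS1 libraries lay far above both shCON libraries, a 5.16-fold rise (log2 fold change 2.37, SE 0.08). All 12 alternative settings kept that rise, between 2.24 and 2.43.

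TLR6, the partner of TLR2 for diacylated lipopeptides, lies on chromosome 4 from 38824518 to 38858438 on the minus strand, where its exons overlap those of TLR1. It was at 8.77 and 7.61 CPM in siRNA control and 5.93 and 6.85 CPM in ETS1 siRNA (log2 fold change -0.36, SE 0.19, not called). In shCON it was at 10.0 and 9.44 CPM and in shETS1 at 11.9 and 11.9 CPM, higher by 0.28 on the log2 scale (SE 0.12). Neither pair overlapped, but the shRNA call did not hold in 7 of 12 settings, among them leaving out shCON replicate 1 (0.32) or replicate 2 (0.24), and with library size as the only scaling the change was 0.16. Of the 50-base windows of TLR6, 4.77% also occur in other genes, mostly TLR1.

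TLR4, the receptor for lipopolysaccharide, lies on chromosome 9 from 120466453 to 120487013 on the plus strand. It was rare: siRNA control had 30 and 19 counts, ETS1 siRNA 12 and 17, shCON 0 and 0, and shETS1 1 and 1. The siRNA groups did not overlap, and the log2 fold change of -0.81 (SE 0.37) was not called in any setting that tested it. The shRNA counts were at or under 3, so no fold is given.

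TLR3, the endosomal receptor for double-stranded RNA, lies on chromosome 4 from 186990065 to 187009227 on the plus strand. It had no read in any siRNA library, which allows up to 3 counts per library. The shCON libraries had 3 and 5 counts, those of shETS1 5 and 10. These are 0.119 and 0.193 against 0.218 and 0.396 CPM, without overlap, and the ratio of shETS1 to shCON was 1.99 with a 95% counting interval from 0.791 to 5.41, so a difference was not detectable at this depth.

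Of the inflammasome sensors, NLRP3 fell after siRNA. NLRP3, which responds to membrane damage and ion flux, lies on chromosome 1 from 247579458 to 247612410 on the plus strand. It was at 9.22 and 9.11 CPM in siRNA control and 2.79 and 1.72 CPM in ETS1 siRNA. Both knockdown libraries were below both controls, a 4.09-fold fall (log2 fold change -2.03, SE 0.25) that was called in all 12 settings, between -2.40 and -1.72. In the shRNA libraries it was barely read, with 9 and 4 counts in shCON and 1 and 4 in shETS1. These groups overlapped, and the ratio of shCON to shETS1 was 2.45 (95% counting interval 0.820 to 8.78). Of the 50-base windows of NLRP3, 72.9% also occur in other genes, mostly in a lncRNA of a later annotation on the same strand.

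NLRP1, a protease and double-stranded RNA sensor, lies on chromosome 17 from 5402735 to 5522744 on the minus strand. It was at 121 and 102 CPM in siRNA control and 84.9 and 77 CPM in ETS1 siRNA. The groups did not overlap, and the log2 fold change of -0.47 (SE 0.14) was not called, but it was called in 4 of 12 settings, among them without ETS1 siRNA replicate 1 (-0.53). In shCON it was at 47.7 and 45.8 CPM and in shETS1 at 46.7 and 43.6 CPM. These groups overlapped, with a log2 fold change of -0.05 (SE 0.08) that became -0.18, and called, with library size as the only scaling.

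The adaptor MYD88, on chromosome 3 from 38180043 to 38184515 on the plus strand, bridges most Toll-like and interleukin-1 receptors to the IRAK kinases. It was at 42.6 and 55.4 CPM in siRNA control and 64.0 and 44.2 CPM in ETS1 siRNA. These groups overlapped, and the log2 fold change of 0.14 (SE 0.20) turned to -0.14 without ETS1 siRNA replicate 1 and to -0.04 without siRNA control replicate 1. In shCON it was at 10.3 and 8.52 CPM and in shETS1 at 2.44 and 3.25 CPM. Both shETS1 libraries were below both controls, a 3.29-fold fall (log2 fold change -1.72, SE 0.17) called in all 12 settings.

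The feedback inhibitors moved apart in the stable lines. NFKBIA, on chromosome 14 from 35870285 to 35873955 on the minus strand, was at 279 and 288 CPM in shCON and 507 and 474 CPM in shETS1. The groups were well separated, a 1.73-fold rise (log2 fold change 0.79, SE 0.08) called in all 12 settings. TNFAIP3, on chromosome 6 from 138188351 to 138204451 on the plus strand, was at 59.1 and 54.4 CPM in shCON and 37 and 43.5 CPM in shETS1. It fell by 0.49 on the log2 scale (SE 0.09), without overlap and in all 12 settings. Both promoters, shown above, hold kappaB matches.

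After siRNA neither inhibitor was called. NFKBIA was at 173 and 224 CPM in siRNA control and 244 and 199 CPM in ETS1 siRNA (log2 fold change 0.16, SE 0.17), and TNFAIP3 at 317 and 387 against 377 and 234 CPM (log2 fold change -0.21, SE 0.22). Both pairs of groups overlapped. Single libraries decided both values: NFKBIA was at -0.02 without siRNA control replicate 1 and 0.36 without replicate 2, and TNFAIP3 at 0.10 without ETS1 siRNA replicate 2 and at -0.58, then called, without replicate 1. WAKMAR2 overlaps exons of TNFAIP3 on the opposite strand.

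IL24 was the only member lower, and called, in both knockdowns. It encodes a secreted cytokine of the IL-10 family that signals through IL-20 receptor chains on epithelial cells, and lies on chromosome 1 from 207070788 to 207077484 on the plus strand. It was at 56.4 and 48.6 CPM in siRNA control and 13.6 and 14.4 CPM in ETS1 siRNA, a 3.76-fold fall (log2 fold change -1.91, SE 0.14) that ranged from -2.01 to -1.80 over 12 settings. In shCON it had 51 and 45 counts and in shETS1 3 and 2. Both falls were free of overlap, and the ratio of shCON to shETS1 was 18.1 with a 95% counting interval from 7.50 to 57.0; the fitted log2 fold change of -4.11 depends on the prior count. FAIM3 overlaps IL24 on the opposite strand and shares 40.2% of its 50-base windows. The FAIM3 counts were 70 and 57 (siRNA control), 49 and 92 (ETS1 siRNA), 6 and 11 (shCON) and 0 and 0 (shETS1). The IL24 counts in the siRNA libraries were 1119 and 780 in control and 233 and 292 after knockdown.

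**Figure D3:**
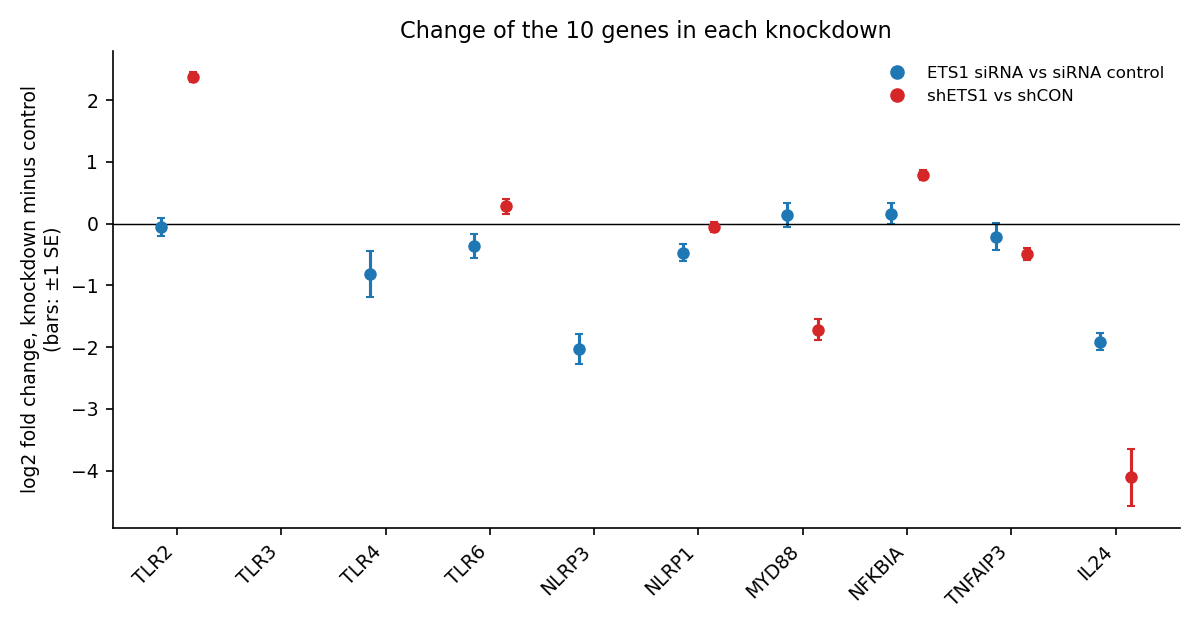
Log2 fold change of each gene, knockdown minus its own control, after siRNA (blue) and shRNA (red), with bars of 1 SE; genes that did not pass the filter on low counts have no point. After shRNA TLR2 (2.37) and NFKBIA (0.79) lie above 0 and MYD88 (-1.72) below it, while their siRNA points (-0.05, 0.16 and 0.14) were not called, and IL24 lies below 0 in both.

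The knockdowns were also set against each other in a joint model of the 8 libraries, by subtracting the siRNA effect from the shRNA effect. Of 9 members tested, 6 were called: TLR2 (2.39, SE 0.14), TLR6 (0.62, SE 0.20), NLRP1 (0.40, SE 0.16) and NFKBIA (0.61, SE 0.19) higher after shRNA, and MYD88 (-1.88, SE 0.31) and IL24 (-2.21, SE 0.41) lower. Over all 17190 genes tested 34.8% were called, 15.1% higher and 19.7% lower. TNFAIP3 (-0.31, SE 0.27) and NLRP3 (0.76, SE 0.93, on summed shRNA counts of 13 and 5) were not called, nor was TLR4, for which no value is given since its shRNA counts were at or under 3. The kind of knockdown cannot be told apart from the separate preparation of the tables. TLR2, MYD88 and IL24 were called in every setting that tested them, NFKBIA in 12 of 15, TLR6 in 10 of 15 and NLRP1 in 5 of 15.

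The heptamer ACCTCAA, chosen earlier on these same data, occurs 1 time in the 3′ UTR of TLR3 and in that of no other member, NLRP3 and IL24 included. Over all genes with a matched transcript 87.7% held 0 copies, with a median siRNA log2 fold change of 0.02. A further 10.4% held 1 copy, with a median of -0.14, and 1.88% held 2 or more, with a median of -0.22. Because the heptamer was chosen on these same data, its lower medians may follow from that choice, and nothing is read from them. Whether the pooled siRNAs acted on genes other than ETS1 was not tested. The absence of 1 heptamer from the 3′ UTRs of NLRP3 and IL24 does not answer that for the pool.

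The other genes of these pathways were examined in 9 lists of 113 genes, and their p-values are from edgeR's quasi-likelihood test, adjusted over all genes tested. After siRNA 12 of 97 tested genes were called, all lower. Before adjustment 5 higher and 26 lower had a p under 0.05, and DESeq2 called 2 higher. The share over all genes tested was 3.41%, with 2.27% lower and 1.13% higher, and stands beside each siRNA list count below. After shRNA 68 of 93 were called (73.1%), 27 higher and 41 lower, beside 60.6% of all genes (29.7% higher and 30.9% lower). The share of single lists ran from 50% to 90%. With library size as the only scaling, which shifts the median of all genes to -0.12, 19 were called higher and 48 lower. The median over the lists was -0.13 after siRNA and -0.15 after shRNA, with 0 for all genes in both. The siRNA count rests on single libraries: 3 genes were called without siRNA control replicate 1 and 20 without ETS1 siRNA replicate 1.

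**Figure D4:**
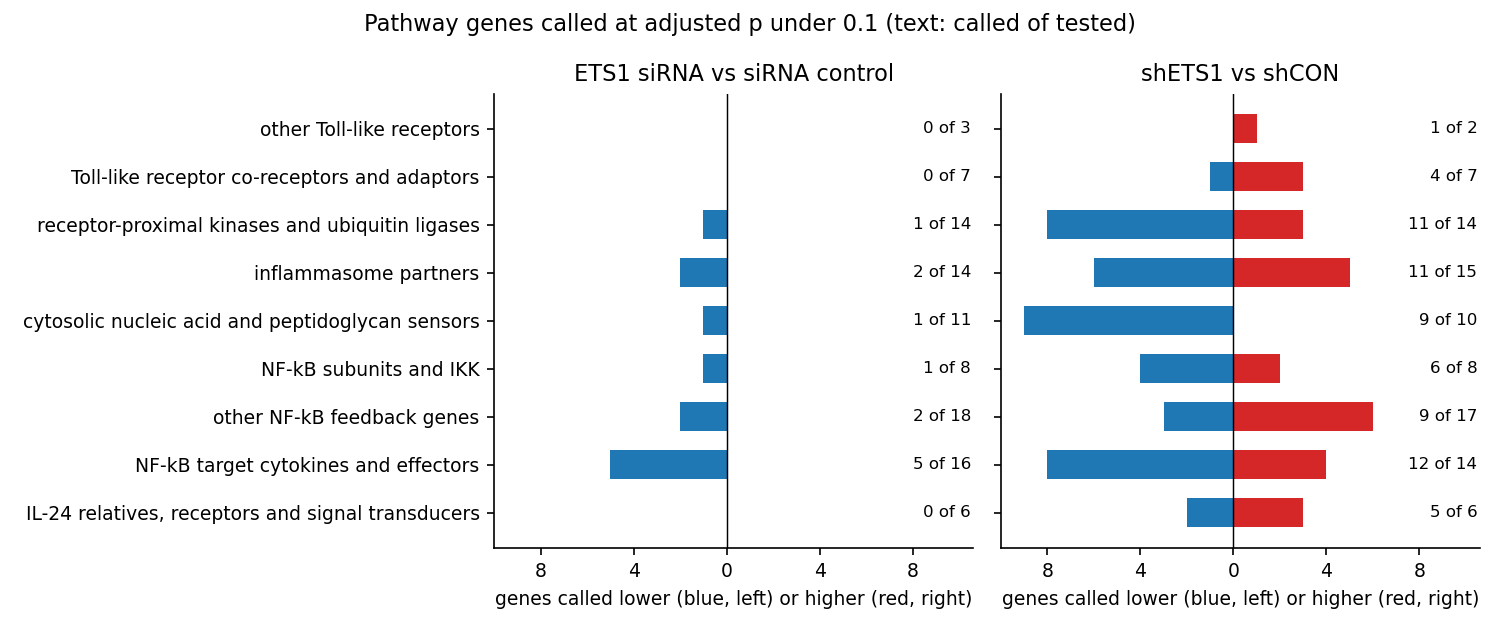
Number of genes in each of the 9 pathway lists called lower (bars to the left) or higher (bars to the right) at an adjusted p under 0.1, after siRNA (left panel) and shRNA (right panel), with the number called of those tested at the right. All 12 siRNA calls are lower, and the shRNA calls go both ways except among the cytosolic sensors, with 9 of 10 called lower, and the other Toll-like receptors, with 1 of 2 called higher.

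Among the other Toll-like receptors 0 of 3 tested were called after siRNA (0 at an unadjusted p under 0.05, and 0 with DESeq2) and 1 of 2 after shRNA. TLR1, the other partner of TLR2, rose from 0.557 and 0.732 to 1.66 and 1.07 CPM (log2 fold change 1.06, adjusted p = 0.017), but was not called without shCON replicate 1 (adjusted p = 0.11) or shETS1 replicate 1 (adjusted p = 0.24). TLR10, of the same subfamily, summed to 23 and 17 counts in siRNA control and ETS1 siRNA, and to 9 and 4 in shCON and shETS1, with counting intervals that include 1.

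Of 7 tested co-receptors and adaptors, 0 were called after siRNA (2 at an unadjusted p under 0.05, and 0 with DESeq2), and 3 rose and 1 fell after shRNA. CD36, a scavenger receptor that presents lipids to TLR2, rose from 63.1 and 76.1 to 382 and 369 CPM (log2 fold change 2.43, adjusted p = 6.2e-13). UNC93B1, which escorts endosomal receptors including TLR3, rose by 0.55 (adjusted p = 0.0003). TICAM1, the adaptor that TLR3 uses instead of MYD88, fell from 3.02 and 2.04 to 0.871 and 1.35 CPM (log2 fold change -1.17, adjusted p = 0.0023). In the shRNA libraries MYD88 and TICAM1 were thus both lower. The adaptors TIRAP (log2 fold change -0.27) and TOLLIP (-0.07) of the same list as TICAM1 were not called there.

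Of 14 kinases and ubiquitin ligases next to the receptors, IRAK3 alone was called after siRNA. IRAK3, an inactive kinase that restrains MYD88 signalling, fell by 0.79 (adjusted p = 0.093) and was not called in 5 of 12 settings, among them without siRNA control replicate 1 (adjusted p = 0.44), without siRNA control replicate 2 (0.17) and without ETS1 siRNA replicate 2 (0.20). After shRNA 3 rose and 8 fell, and 5 fell without shCON replicate 1. IRAK1, the kinase recruited to MYD88, fell from 192 and 200 to 112 and 109 CPM (log2 fold change -0.83, adjusted p = 3.6e-08), and TAB3, a ubiquitin-binding subunit of the TAK1 complex, fell by 0.90 (adjusted p = 4.8e-06). MAP3K7, which encodes TAK1 itself, rose by 0.49 (adjusted p = 2.2e-05).

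Among inflammasome partners 2 of 14 fell after siRNA, and 5 rose and 6 fell of 15 after shRNA. NEK7, the kinase that NLRP3 needs for assembly, fell from 144 and 115 to 68.7 and 74.0 CPM after siRNA (log2 fold change -0.86, adjusted p = 0.039, and 0.24 without siRNA control replicate 1). After shRNA NEK7 rose from 228 and 236 to 304 and 301 CPM (log2 fold change 0.38, adjusted p = 0.00023). IL1B, an inflammasome substrate, fell by 0.70 after siRNA (adjusted p = 0.063) and was not called without siRNA control replicate 1 (0.22), siRNA control replicate 2 (0.15) or ETS1 siRNA replicate 2 (0.10). After shRNA IL1B fell from 76.5 and 73.4 to 6.49 and 7.14 CPM (log2 fold change -3.46, adjusted p = 2.9e-14). PYCARD, the adaptor ASC, fell by 1.15 (adjusted p = 5.4e-06), while the other substrate cytokine, IL18, rose from 95.7 and 104 to 170 and 163 CPM (log2 fold change 0.74, adjusted p = 2.3e-07).

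Most genes on the list of cytosolic sensors of nucleic acids and peptidoglycan, which also holds adaptors such as TMEM173, fell in the stable lines. Of 10 tested, 9 were called lower, beside 30.9% of all genes. The number lower was 8 with DESeq2 and 10 with library size as the only scaling. The median log2 fold change of the list was -0.67, beside 0 for all genes, and lay between -0.75 and -0.65 when a library was left out. DDX58, the RNA helicase RIG-I, fell from 77 and 87.6 to 27.5 and 28.1 CPM (log2 fold change -1.56, adjusted p = 1.1e-10), and IFIH1, the helicase MDA5, fell by 0.90 (adjusted p = 1.3e-07). TMEM173, the DNA-sensing adaptor STING, fell by 1.08 (adjusted p = 8.4e-07). After siRNA TMEM173 was the 1 gene called of 11, from 47.7 and 45.7 to 26.6 and 24.4 CPM (log2 fold change -0.87, adjusted p = 0.021, and 0.11 without siRNA control replicate 1). The siRNA median of this list was 0.31 and turned to -0.13 without ETS1 siRNA replicate 1.

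Of the 8 NF-kB subunits and IKK kinases, 4 fell and 2 rose after shRNA. The 2 rises were lost with DESeq2 and with library size only (0 higher in each), and 1 was left without shCON replicate 1, shCON replicate 2 or shETS1 replicate 1. NFKB2 fell by 0.84 (adjusted p = 2.4e-06), NFKB1 by 0.42 (adjusted p = 8.5e-05) and RELA, the main activating subunit, by 0.48 (adjusted p = 0.00044). After siRNA 1 was called, CHUK, which encodes the kinase IKKα. It fell from 58.7 and 51.4 to 37.8 and 38.0 CPM (log2 fold change -0.54, adjusted p = 0.089), and was not called without siRNA control replicate 1 (0.71), siRNA control replicate 2 (0.11) or ETS1 siRNA replicate 2 (0.12).

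Of the other feedback genes 2 of 18 fell after siRNA, and 6 rose and 3 fell of 17 after shRNA, or 4 and 6 with library size only. BIRC3, the ubiquitin ligase cIAP2, went in opposite directions: it fell from 73.1 and 81.2 to 47.8 and 32.0 CPM after siRNA (log2 fold change -0.95, adjusted p = 0.055, and 0.11 without siRNA control replicate 1) and rose from 102 and 113 to 418 and 400 CPM after shRNA (log2 fold change 1.93, adjusted p = 2.7e-12). The difference between these effects was 2.86 (SE 0.22, adjusted p = 2.6e-05). TRAF1, its binding partner, fell by 0.95 after siRNA (adjusted p = 0.031, and 0.11 without siRNA control replicate 1) and rose by 0.44 after shRNA (adjusted p = 0.066). After shRNA TNIP1, which works together with A20, fell by 0.67 (adjusted p = 1e-06), and NFKBIZ, an inducible nuclear IκB protein, rose by 0.53 (adjusted p = 1.9e-05).

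The NF-kB target cytokines and effectors were the list with most calls after siRNA. All 16 tested had a log2 fold change below 0, beside 7335 of the 14742 genes tested. The median was -0.62, beside 0 for all genes, and 5 were called lower, beside 2.27% of all genes. PTGS2, the prostaglandin synthase COX-2, fell from 543 and 416 to 175 and 191 CPM (log2 fold change -1.39, adjusted p = 0.011, called in all 12 settings). IL6 fell by 1.17 (adjusted p = 0.021, and 0.11 without siRNA control replicate 1) and the chemokine CCL20 by 0.88 (adjusted p = 0.038, and 0.15 without it). IL8 and CSF2, named after their values were seen to complete the count, changed by -1.21 (adjusted p = 0.042) and -0.77 (adjusted p = 0.093, CSF2 not being called without siRNA control replicate 1 or ETS1 siRNA replicate 2). The number below 0 was 12 of 16 without siRNA control replicate 2 or without ETS1 siRNA replicate 2, and 3 were called without siRNA control replicate 1.

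After shRNA the same list went both ways, with 4 of 14 higher, 8 lower and a median of -0.57. The number lower was 5 without shCON replicate 1 and 4 with DESeq2. PTGS2 fell again, from 81.7 and 69.5 to 14.0 and 13.6 CPM (log2 fold change -2.45, adjusted p = 1.7e-12), and IER3, an immediate early survival gene, fell by 1.68 (adjusted p = 1.4e-11). TNFAIP2 rose from 21.9 and 22.1 to 75.6 and 68.4 CPM (log2 fold change 1.71, adjusted p = 3.5e-11). CCL20, lower after siRNA, rose after shRNA (log2 fold change 0.69, adjusted p = 0.00025), and the difference between its effects was 1.54 (SE 0.18, adjusted p = 0.00023).

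**Figure D5:**
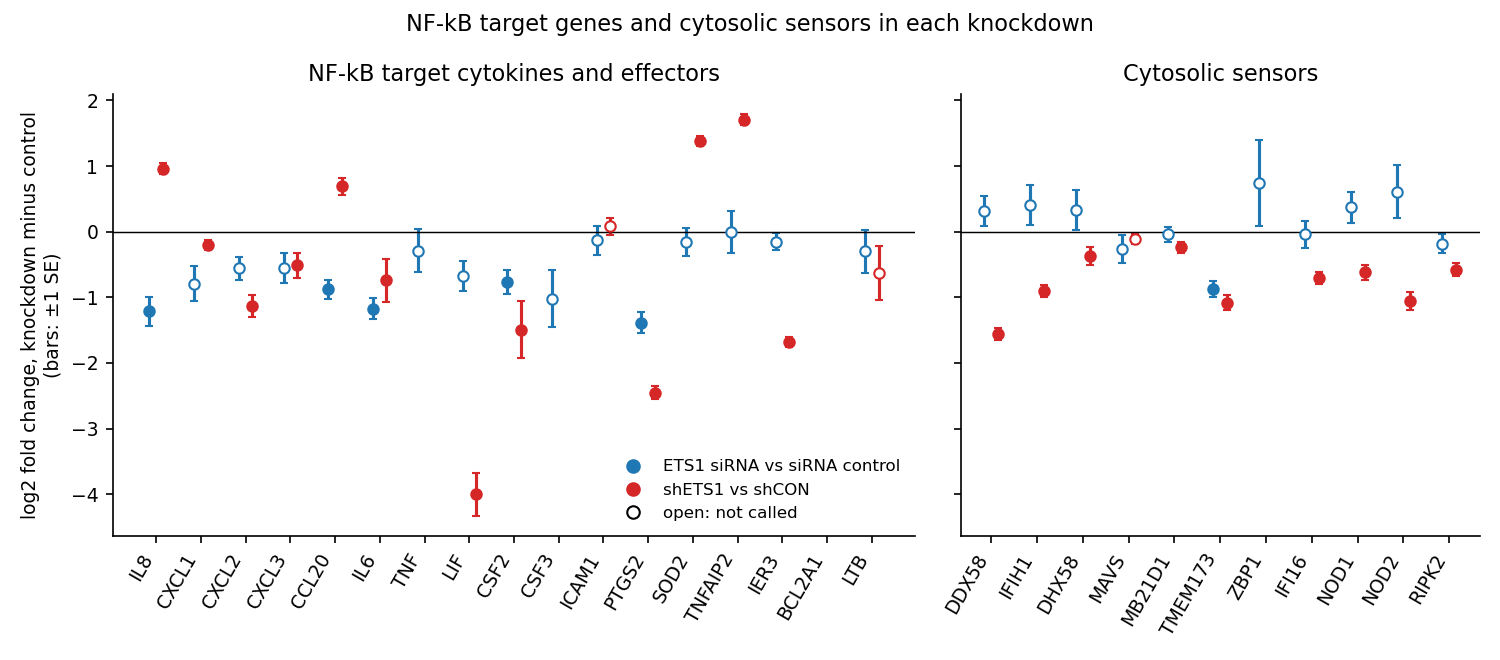
Log2 fold change, knockdown minus control, with bars of 1 SE, for the NF-kB target genes (left) and the cytosolic sensors (right) after siRNA (blue) and shRNA (red); open points were not called and genes without a point did not pass the filter. After siRNA the target genes lie below 0 (median -0.62), and after shRNA they scatter on both sides while the sensors lie below 0 (median -0.67).

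The receptor chains of IL-24 were also measured. IL20RB, the shared chain, was at 97.0 and 124 CPM in siRNA control and 152 and 152 CPM in ETS1 siRNA (log2 fold change 0.46, adjusted p = 0.18), and rose from 245 and 266 to 395 and 371 CPM after shRNA (log2 fold change 0.59, adjusted p = 5.5e-06). IL22RA1, which pairs with it, was at 13.5 and 17.7 CPM against 25.4 and 23.1 CPM after siRNA (log2 fold change 0.64, adjusted p = 0.12) and fell from 9.19 and 9.13 to 3.49 and 3.33 CPM after shRNA (log2 fold change -1.43, adjusted p = 4e-07). IL20RA, the alternative partner, was barely read, with 6 counts over shCON and 29 over shETS1, a ratio of 5.13 (95% counting interval 2.09 to 15.1). Of the 6 genes of the list tested after siRNA 0 were called with edgeR (2 at an unadjusted p under 0.05), and DESeq2 called 2 higher. After shRNA 3 rose and 2 fell, and JAK1, the kinase bound to these receptors, rose by 0.92 (adjusted p = 1.1e-08).

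By distance between pairs of log2 fold changes (siRNA and shRNA), IL24 and TLR2 lay farthest from 0 among the 7 members tested in both, which leave out TLR3, TLR4 and NLRP3. The genes nearest to TLR2 among 12575 were COL8A1 (distance 0.14), TNFSF10 (0.14) and MME (0.17), with shRNA log2 fold changes of 2.27, 2.33 and 2.48. Those nearest to IL24 among 12576 were C20orf197 (0.74), PODXL (0.80) and TMEM156 (0.90), all lower in both knockdowns. IL24 lay farther from 0 than TLR2 (4.54 against 2.37), so the distances of the 2 members to their nearest genes are not compared. The shRNA value of IL24 also depends on the prior count.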

How the data were processed

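The authors prepared TruSeq libraries, sequenced single-end reads of 50 bases, mapped them to GRCh37 with TopHat2 2.1.1 and Bowtie2 2.2.6 and assigned them to genes with featureCounts 1.5.0 (versions and build from the submitters' processing notes). What they deposited were unnormalized counts of reads for each gene symbol, in 1 table for each knockdown. The use of strand and of reads with several matches is not given in the sources used here, so overlapping genes may divide or lose reads. No sample column was left out.

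Knockdown and control libraries of a table were compared with the two-sided quasi-likelihood test of edgeR 4.0.16 (R 4.3.3), TMM scaling, filterByExpr, no covariate and Benjamini-Hochberg adjustment over all genes tested. A gene was called at an adjusted p under 0.1, the study's threshold. CPM are counts divided by the scaled library size within each table. The SE of a log2 fold change is its size over the square root of F. The difference between knockdowns was an interaction over all 8 libraries. Ratios of counts that were low have exact 95% intervals, which cover counting error only. Total counts per library, 15954616 to 25953213, set the precision, and the common dispersion was 0.0192 in the siRNA and 0.00402 in the shRNA libraries. Replicates of each group differed by more than sampling noise.

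The members and the gene lists were chosen with earlier results of these data known. The pathway lists were drawn up from textbook roles and not meant to follow how genes moved. With those results known, their independence from the changes cannot be shown, and the p-values of list genes carry this limit. Named were ETS1, the members, up to 3 called genes with the lowest adjusted p per list and comparison at a mean of at least 1 CPM, TLR1, TLR10, IL20RA, IL20RB, IL22RA1, and the 3 genes nearest to each of the 2 members farthest from 0. IL8, CSF2, FAIM3, TIRAP, TOLLIP, LUM, DCN and the other single cell type markers were named after their values were seen.

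On simulated data in which 200 genes carried a log2 change of 1, 68.4% were recovered with the siRNA libraries (14517 genes), 87.8% with the shRNA libraries (16080 genes) and 52.4% for the difference (16394 genes), and 15.7%, 10.9% and 10.7% of the calls were unchanged genes. In the real data a far larger share was called, 60.6% of genes after shRNA and 34.8% for the difference. The simulated rates therefore need not hold for those comparisons. Gene positions and transcript lengths are from GENCODE lifted to GRCh37, and promoters from RefSeq on GRCh38.p14, with an entry for 9 of 10 members. Alternatives were DESeq2 1.42.0, its size factors in edgeR, library size only, structural and mitochondrial RNAs left out, no filter, at least 10 counts in every library, a stricter adjusted p under 0.05, the replicate block, a joint fit of the 8 libraries, and leaving out each library.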

Additional observations from a re-analysis of the deposited data

Results flagged for a closer look

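The effect of the stable hairpin and that of the siRNA differed, by the test of the difference itself in one fit of all 8 libraries, for 32 of the named genes. Values are the shRNA effect minus the siRNA effect on the log2 scale. For ETS1 it was 1.23, the fall after shRNA being the smaller. For the members it was 2.39 for TLR2, 0.62 for TLR6, 0.40 for NLRP1, 0.61 for NFKBIA, -1.88 for MYD88 and -2.21 for IL24, and since they were chosen with both effects known no p is given. Of the 31 pathway genes that the rule named as called after siRNA or shRNA, 25 differed at an adjusted p under 0.1 in edgeR, beside 34.8% of all genes tested. The effect was higher after shRNA, with the adjusted p second, for BIRC3 (2.86, 2.6e-05), CD36 (2.71, 0.0017), TNFAIP2 (1.7, 0.011), CCL20 (1.54, 0.00023), TLR1 (1.5, 0.079), TRAF1 (1.37, 0.00094), NFKBIZ (1.3, 0.015), NEK7 (1.23, 0.00036), JAK1 (0.98, 0.0056), IRAK3 (0.96, 0.0025), CHUK (0.61, 0.0096) and MAP3K7 (0.41, 0.036). It was lower after shRNA for IL1B (-2.78, 7.1e-06), IL22RA1 (-2.08, 0.00013), DDX58 (-1.9, 0.00072), IER3 (-1.55, 4.1e-05), PYCARD (-1.4, 0.0025), IFIH1 (-1.32, 0.022), TICAM1 (-1.17, 0.019), PTGS2 (-1.08, 0.0024), TNIP1 (-0.81, 0.0042), IRAK1 (-0.8, 0.00095), NFKB2 (-0.8, 0.0027), RELA (-0.74, 0.0042) and TAB3 (-0.59, 0.052). The pathway genes had been chosen for a called change, so this share is a description. IL8, named after its values were seen and outside that count, differed by 2.15 (adjusted p = 0.00023), and CSF2 by -0.73 (adjusted p = 0.23). The kind of knockdown cannot be told apart from the separate preparation of the tables.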

How the results depend on the processing

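No called change of a member turned direction. Of those not called after siRNA, MYD88, NFKBIA and TNFAIP3 took the other sign in 1 or 2 of 12 alternatives. TLR2 reached 0 after rounding in 1 of 12. After siRNA the number of members called was 2 and ranged from 2 to 4 when a library was left out, with 4 (NLRP1 and TNFAIP3 added) without ETS1 siRNA replicate 1. The number of pathway genes called was 12 after siRNA, and became 7 at an adjusted p under 0.05, 19 with no filter on low counts and 25 in a joint fit of the 8 libraries, 5 of them higher in each case, and 3 to 20 when a library was left out. After shRNA members called ranged from 5 to 6 and pathway genes from 54 to 68 over all alternatives. The replicate numbers are shared by the groups, but the labels do not say that a number marks a shared day or culture. Across genes, the replicate differences of control and knockdown ran in opposite directions (Pearson r -0.538 for siRNA and -0.244 for shRNA, genes not being independent replicates). A block by replicate number cannot take up differences that run opposite ways in control and knockdown. With the replicate number as a block, 3 pathway genes were called after siRNA and 3 members differed between knockdowns, in place of 6, which fell to 4 with DESeq2 and lay between 4 and 6 when a library was left out. The causes were not tested. At 2 libraries per group the siRNA comparison, with its larger dispersion, limits what can be called.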
